A study of Mus musculus with 6 samples.

Results

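The genes described here are 38 lysosomal genes, which are 38 of the 17254 genes with a value in the deposited tables. They were chosen by name, as listed mouse symbols matched to Entrez gene identifiers, in a list written with earlier results of these data known. Most encode hydrolases that work inside the lysosome or proteins of its membrane, and the list also holds the secreted and lysosomal protein progranulin, an accessory subunit of the proton pump and the transcription factors Tfeb and Tfe3. Of the 38 genes, 37 passed the filter on low counts and were tested. Ctsz, a cysteine carboxypeptidase, did not pass, with 0.937 and 1.33 counts scaled to library size (CPM) in PQ libraries, 0.556 and 0.594 in NAC libraries, and 0.505 and 0.727 in control libraries.

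RNA sequencing was done on mouse neural stem and progenitor cells in culture, and the series title gives redox potential as the question. The PQ group had PQ for 48 h and the NAC group had NAC for 48 h. The control group is labelled as control, with 48 h recorded for it as well. Each group has 2 libraries, and all cells were grown in N2 medium with EGF and bFGF. The labels spell out neither PQ nor NAC and give no dose, strain, age or passage. They do not state whether libraries with the same label are separate cultures, so p-values here cover only the library-to-library spread, and this could be technical in origin.

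Lysosomes are acidic compartments in which hydrolases take apart proteins, glycans, lipids and nucleic acids brought in by endocytosis and autophagy. The proton pump (V-ATPase) keeps them acidic, heavily glycosylated membrane proteins such as Lamp1 and Lamp2 line them, and transporters carry the products out. Many of these genes carry a palindromic E-box in their promoters, the core of the CLEAR element, which the related factors TFEB and TFE3 bind. In the brain, loss of single lysosomal enzymes causes storage diseases, and quiescent neural stem cells are known for large lysosomes.

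The libraries held 9680436 to 10698241 expected counts. Libraries of a group differed by more than counting noise, with a chi-square per degree of freedom of 3.97 to 6.62, and libraries of different groups by 14.2 to 35.8. The neural stem cell markers Nes, Sox2, Fabp7, Slc1a3 and Vim were between 296 and 4871 CPM in every library, while Hes5 and Prom1 of the same list were below the filter. The whole list summed to 7630 and 7460 CPM in PQ libraries, 5593 and 5521 in NAC libraries, and 7261 and 7171 in control libraries. Of its 9 tested genes, 1 was higher and 3 were lower with PQ than in control (median log2 fold change -0.23), 1 was higher and 3 were lower with NAC than in control (median 0.07), and 2 were higher and 4 lower with PQ than with NAC (median -0.26). Among those called with PQ were Nes (log2 fold change 0.34 ± 0.09, edgeR adjusted p = 0.0104), higher, and Slc1a3 (-0.48 ± 0.09, adjusted p = 0.00166) and Sox2 (-0.36 ± 0.10, adjusted p = 0.0139), lower. The estimates of the 9 genes with PQ against control ran from -1.22 to 0.34, with 2 higher and 5 lower at an unadjusted p under 0.05. With NAC, Vim was the most changed of those lower (-0.76 ± 0.09, edgeR adjusted p = 5.67e-06). Lysosomal genes are also high in microglia, and 12 of 15 microglia and macrophage markers were below the filter or not listed, with Aif1, Csf1r, Ptprc, Trem2, C1qa and C1qb at no more than 0.312 CPM. That list summed to 11.7 and 11.9 CPM in PQ libraries, 12.8 and 10.9 in NAC libraries, and 7.14 and 7.15 in control libraries, mostly from P2ry12, Cx3cr1 and Cd68. P2ry12 was called higher with NAC (log2 fold change 1.18 ± 0.26, edgeR adjusted p = 0.00339). The estimates of the 3 tested microglia and macrophage genes were all positive with PQ (median log2 fold change 0.54) and with NAC (median 0.27). With PQ against control 0 of them were called. Astrocyte markers summed to 611 to 666 CPM in PQ, 552 to 558 in NAC and 529.6 to 535 in control libraries. Of the 7 astrocyte genes, 2 were higher and 0 lower with PQ than in control (2 and 0 at an unadjusted p under 0.05; median log2 fold change 0.22), 4 were higher and 1 was lower with NAC than in control (median 1.09), and 2 were higher and 4 lower with PQ than with NAC (median -0.53). With NAC, Aqp4 (1.76 ± 0.22, edgeR adjusted p = 1.53e-05), Gfap (1.23 ± 0.21, adjusted p = 0.000342) and Aldoc (1.09 ± 0.10, adjusted p = 4.99e-07) were among those higher. Endothelial markers, mostly Flt1, summed to 107 to 124 CPM in PQ, 85.9 to 106 in NAC and 81.9 to 86.9 in control libraries. The 1 endothelial gene tested was called higher with PQ than in control (log2 fold change 0.45) and was not called in the other comparisons. Neuron markers, mostly Map2, summed to 188 to 198 CPM in PQ, 324 to 363 in NAC and 202 to 212 in control libraries, and oligodendrocyte markers to 219.7 to 225 CPM in PQ, 217 to 251 in NAC and 202 to 224 in control libraries. Of 4 neuron genes tested, 1 was higher and 1 was lower in each comparison, and DESeq2 called 0 of them with PQ against control. Of 4 oligodendrocyte genes tested, 0 were called with PQ against control, 2 were higher with NAC than in control, and 1 was lower with PQ than with NAC. Fibroblast and pericyte markers summed to 4.27 and 9.03 CPM in PQ, 4.82 and 4.76 in NAC, and 2.83 and 2.29 in control libraries. Of 4 fibroblast and pericyte genes tested, 2 were higher and 0 lower with PQ than in control (median log2 fold change 2.18). With NAC 1 was higher and 0 lower than in control (median 1.5), and 0 were called with PQ against NAC (median 0.44). DESeq2 called 0 of them in each comparison. The part of these markers in the results below was not tested. In bulk RNA, fewer cells of a type and less RNA per cell cannot be told apart.

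Measured per length, as FPKM, which divides by transcript length and depth, the lysosomal genes spanned a wide range of levels in every group. In control cells the tetraspanin Cd63 averaged 334 ± 11.3 FPKM, the saposin precursor Psap 274 ± 8.72, the membrane protein Lamp1 214 ± 16.2 and the membrane protein Laptm4a 168 ± 17.4 (SD, n = 2), while the aspartic protease Ctsd had 264 and 236 FPKM in the control libraries. At the low end of the tested genes stood Sgsh with 2.2 ± 0.0849, Manba with 3.04 ± 0.148, Cln3 with 4.10 ± 0.905 and Tfeb with 4.63 ± 0.445 FPKM. Tfe3 averaged 20.9 ± 0.438 FPKM in control cells, above Tfeb. In PQ cells Ctsd, at 451 ± 32.7 FPKM, stood above Cd63 at 415 ± 30.4 FPKM with a gap close to these SDs, and in control cells Cd63 stood above Ctsd by more than either SD.

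RefSeq promoter windows, from 250 bases before to 50 bases after an annotated start (GRCm38.p6), were available for 34 of the 38 genes. The E-box CACGTG was in a window of 12 of these 34 genes (35.3%), against 8.09% of all 27025 genes with a window and 11.8% of the tested genes. The longer core TCACGTGA, which contains the E-box, was in 5 of 34 (14.7%), against 1.12% of all genes and 2.23% of tested genes. Both motifs are palindromes, so they read the same on both strands. The 12 genes were Arsa, Cln3, Ctsa, Ctsd, Ctsl, Gaa, Gla, Glb1, Lamp1, Mcoln1, Naglu and Sgsh. The stretches of the 5 genes with the core, and of Lamp1 with 4 E-boxes, are shown because they include genes that rose in both treatments (Cln3, Lamp1), genes that rose with PQ (Ctsd, Gla) and genes that passed no test (Ctsa, Mcoln1). Each runs 5′ to 3′ on the gene's strand, with E-boxes and cores in capitals.
Ctsd: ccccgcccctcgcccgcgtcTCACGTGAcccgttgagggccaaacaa
Gla: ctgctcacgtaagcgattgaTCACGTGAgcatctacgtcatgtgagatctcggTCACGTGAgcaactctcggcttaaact
Cln3: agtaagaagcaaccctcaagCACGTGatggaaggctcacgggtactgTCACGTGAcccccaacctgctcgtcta
Lamp1: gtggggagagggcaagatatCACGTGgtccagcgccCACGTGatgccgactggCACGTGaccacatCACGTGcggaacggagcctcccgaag
Ctsa: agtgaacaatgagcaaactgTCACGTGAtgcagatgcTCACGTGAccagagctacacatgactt
Mcoln1: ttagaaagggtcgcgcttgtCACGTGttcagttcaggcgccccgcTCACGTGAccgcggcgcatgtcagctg

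These stretches lie at chr7:142387900-142387946 on the minus strand for Ctsd, chrX:134601174-134601253 on the minus strand for Gla, and chr7:126583332-126583405 on the minus strand for Cln3. Those of Lamp1 (chr8:13159080-13159171), Ctsa (chr2:164833740-164833803) and Mcoln1 (chr8:3500428-3500499) are on the plus strand. The Ctsd core is upstream of the annotated start, in a stretch from -119 to -73. The Lamp1 and Ctsa stretches cross the annotated start, and the starts used for Cln3 and Ctsa lie inside the annotated span of the gene. Each of these 2 genes has another window, at its outer annotated start, with 0 E-boxes and 0 cores. Among the genes with a window, the E-box was in 6 of the 18 that rose with PQ (33.3%) and in 6 of the 16 that did not (37.5%). The core was in 3 of 18 (16.7%) and 2 of 16 (12.5%). A match describes the letters in the window and does not show binding.

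With PQ, 19 of the 37 tested lysosomal genes were higher than in control cells (51.4%) and 0 were lower, against 9.07% higher and 8.8% lower among all 12813 genes tested. The calls are those with an adjusted p under 0.05 in edgeR's quasi-likelihood test with Benjamini-Hochberg adjustment over all genes. The median log2 fold change of the 37 genes was 0.30, that of all genes was -0.0024, and 31 of the 37 estimates were positive. At an unadjusted p under 0.05 the counts were 22 higher and 0 lower, and DESeq2 called 16 higher and 0 lower. In 26 genes both PQ libraries lay above both control libraries (29% of all genes did), and in 3 both lay below (28.2% of all genes). The size of the count rests on PQ replicate 2. Without it 2 of 37 genes passed (5.41%), close to the 6.36% of all genes called in that fit, with a median log2 fold change of 0.23 and 30 of 37 estimates positive. Leaving out PQ replicate 1, control replicate 1 or control replicate 2 also gave fewer calls, with a share above that of all genes in the same fit. The median log2 fold change of the lysosomal genes in these fits was 0.34, 0.27 and 0.30. Ctsd and Neu1 passed in each fit that left out 1 library and in each other alternative.

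**Figure D1:**
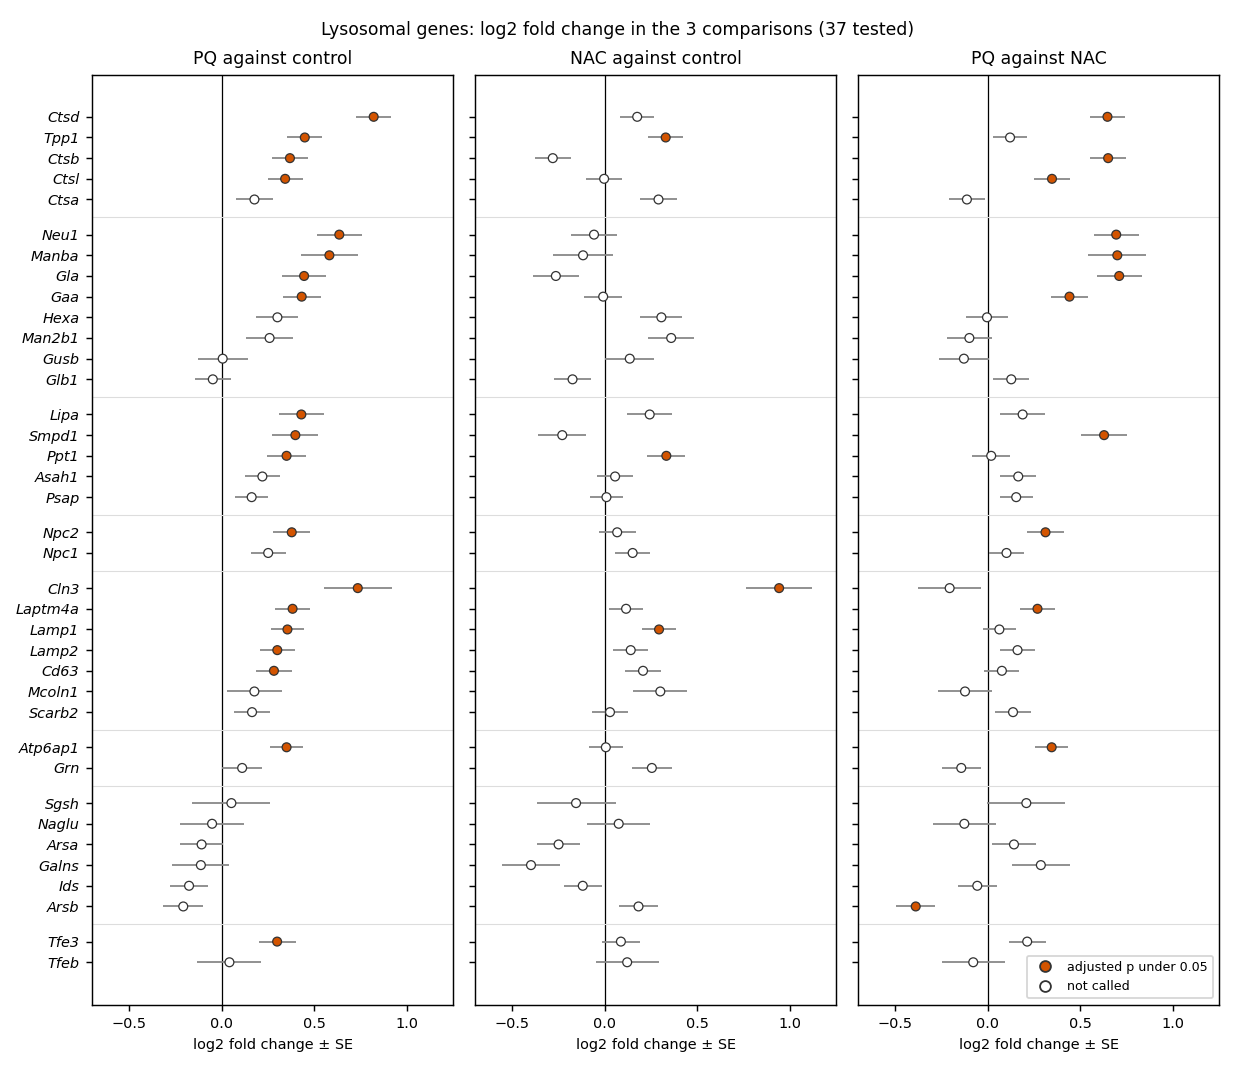
Log2 fold change (x axis) of the 37 tested lysosomal genes, ordered by role, in 3 panels (PQ over control at the left, NAC over control in the middle, PQ over NAC at the right); points are edgeR estimates, bars are standard errors and filled points have an adjusted p under 0.05. With PQ 19 genes are filled and none of these lies to the left of 0, while the glycosaminoglycan and sulfate ester enzymes (Sgsh to Arsb) sit around or below 0.

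Among the proteases, 4 of the 5 tested rose with PQ. Ctsd, the main aspartic protease of the lysosome (Entrez gene 13033, chr7:142375910-142387827), had 851 and 924 CPM in PQ libraries, 545 and 590.2 in NAC libraries, and 529 and 477 in control libraries. Both PQ libraries lay above the other 4, and the log2 fold change against control was 0.82 ± 0.09 (SE), a 1.77-fold higher level (edgeR adjusted p = 1.11e-05). The cysteine protease Ctsb had 136 and 137 CPM in PQ libraries, 82.6 and 91.7 in NAC libraries, and 105 and 106 in control libraries. The 3 groups did not overlap, and the log2 fold change with PQ was 0.37 ± 0.10 (edgeR adjusted p = 0.0116). Ctsb shares 12.8% of its exonic bases with Fdft1 on the opposite strand, and Fdft1 differed with PQ in the same direction (0.31 ± 0.09, adjusted p = 0.0278). The cysteine protease Ctsl had 152 and 152 CPM in PQ libraries, 117 and 122 in NAC libraries, and 114 and 126 in control libraries. Its log2 fold change with PQ was 0.34 ± 0.09 (edgeR adjusted p = 0.0179), with both PQ libraries above the rest. Tpp1, a tripeptidyl peptidase whose loss causes a neuronal ceroid lipofuscinosis, had 188 and 199.8 CPM in PQ libraries, 183 and 174 in NAC libraries, and 149 and 135 in control libraries. All 4 treated libraries lay above both control libraries, and with PQ the log2 fold change was 0.45 ± 0.09 (edgeR adjusted p = 0.00294). Ctsa, a carboxypeptidase that protects Neu1 and Glb1 from degradation, had 114 and 123 CPM in PQ libraries and 104 and 106 in control libraries and did not pass (0.18 ± 0.10, adjusted p = 0.248). The adjusted p without PQ replicate 2 was 0.104 for Ctsb, 0.127 for Ctsl and 0.0635 for Tpp1; without PQ replicate 1 it was 0.0634 for Ctsb and 0.0909 for Ctsl, and without control replicate 1 it was 0.105 for Ctsl.

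Of the 8 glycosidases, which remove sugars from glycoproteins, glycolipids and glycogen, 4 rose with PQ and 0 fell, with 5 higher and 0 lower at an unadjusted p under 0.05 and 3 higher and 0 lower in DESeq2. Neu1, the lysosomal sialidase, had 50.3 and 56.5 CPM in PQ libraries, 29.9 and 36.3 in NAC libraries, and 35.3 and 33.5 in control libraries. The PQ libraries were the highest, with a 1.55-fold higher level than control (log2 fold change 0.63 ± 0.12, edgeR adjusted p = 0.00132). Manba, the β-mannosidase, had 16.6 and 17.8 CPM in PQ libraries, 10.9 and 10.2 in NAC libraries, and 11.8 and 11.1 in control libraries. It was 1.5-fold higher with PQ (log2 0.58 ± 0.16, edgeR adjusted p = 0.0145). Gla, the α-galactosidase missing in Fabry disease, had 41.0 and 38.2 CPM in PQ libraries, 23.9 and 24.5 in NAC libraries, and 28.8 and 29.3 in control libraries. Its 3 groups did not overlap, and its log2 fold change with PQ was 0.44 ± 0.12 (edgeR adjusted p = 0.0145). Gaa, the α-glucosidase that degrades glycogen, had 139.6 and 151 CPM in PQ libraries, 102 and 113 in NAC libraries, and 115 and 101 in control libraries. Its PQ libraries lay above the other 4 (log2 0.43 ± 0.10, edgeR adjusted p = 0.00643). The other 4 glycosidases did not pass: Hexa, a subunit of β-hexosaminidase (0.30 ± 0.11, adjusted p = 0.0758), the α-mannosidase Man2b1 (0.26 ± 0.13, adjusted p = 0.173), the β-glucuronidase Gusb (0.01 ± 0.14, adjusted p = 0.988) and Glb1. Glb1 encodes the β-galactosidase whose activity is used as a stain for senescent cells, and it had 84.7 and 78.9 CPM in PQ libraries, 73.0 and 76.9 in NAC libraries, and 87.1 and 82.0 in control libraries, so that PQ and control overlapped (-0.05 ± 0.10, adjusted p = 0.786). Without PQ replicate 2 the adjusted p was 0.130 for Manba, 0.0633 for Gla and 0.108 for Gaa; without control replicate 2 it was 0.0675 for Manba and 0.0526 for Gaa, without PQ replicate 1 it was 0.112 for Gla, and DESeq2 gave 0.0691 for Manba.

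Among 5 genes of lipid degradation, 3 rose with PQ, and the estimates of all 5 were positive. Lipa, the acid lipase for cholesteryl esters and triglycerides, had 41.2 and 43.5 CPM in PQ libraries, 40.6 and 33.8 in NAC libraries, and 30.7 and 32.2 in control libraries. Both PQ libraries were the highest (log2 0.43 ± 0.12, edgeR adjusted p = 0.0204). Smpd1, the acid sphingomyelinase, had 56.1 and 74.6 CPM in PQ libraries, 40.6 and 44.2 in NAC libraries, and 50.7 and 48.6 in control libraries. The PQ libraries lay apart from each other, and the log2 fold change of 0.40 ± 0.12 (edgeR adjusted p = 0.034) fell to 0.17 without PQ replicate 2 (adjusted p = 0.529). Ppt1, which removes palmitate from proteins, had 92.6 and 90.2 CPM in PQ libraries, 96.2 and 84.3 in NAC libraries, and 68.0 and 75.4 in control libraries. All 4 treated libraries lay above control (with PQ 0.35 ± 0.10, edgeR adjusted p = 0.0252). Acid ceramidase Asah1 (0.22 ± 0.10, adjusted p = 0.129) and the saposin precursor Psap (0.16 ± 0.09, adjusted p = 0.24) did not pass. Of the 2 proteins that export cholesterol from the lysosome, the soluble Npc2 passed, with 155 and 167 CPM in PQ libraries, 124 and 135 in NAC libraries, and 132 and 116 in control libraries. Its PQ libraries were above the rest (0.38 ± 0.10, edgeR adjusted p = 0.0138), and its membrane partner Npc1 did not pass (0.25 ± 0.09, adjusted p = 0.0746). Leaving out PQ replicate 2 gave an adjusted p of 0.168 for Lipa, 0.122 for Ppt1 and 0.170 for Npc2, and without PQ replicate 1 it was 0.0577 for Lipa and 0.131 for Ppt1. Without control replicate 1 it was 0.0637 for Lipa and 0.129 for Ppt1, and without control replicate 2 it was 0.0933 for Smpd1 and 0.106 for Npc2. DESeq2 gave 0.0665 for Smpd1, and limma on FPKM gave 0.0761 to 0.0787.

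Membrane proteins rose in 5 of 7 cases with PQ. Lamp1 had 616 and 649.7 CPM in PQ libraries, 614 and 599 in NAC libraries, and 466 and 524 in control libraries. All 4 treated libraries lay above both controls, by 1.28-fold with PQ (log2 0.35 ± 0.09, edgeR adjusted p = 0.0107). Laptm4a had 476 and 476 CPM in PQ libraries, 397 and 393 in NAC libraries, and 337 and 393 in control libraries. Its PQ libraries were the highest (log2 0.38 ± 0.09, edgeR adjusted p = 0.00823). Cln3, a membrane protein mutated in juvenile neuronal ceroid lipofuscinosis, had 15.2 and 18.8 CPM in PQ libraries, 17.9 and 21.5 in NAC libraries, and 11.7 and 8.73 in control libraries. It was 1.66-fold higher with PQ (log2 0.73 ± 0.18, edgeR adjusted p = 0.00928). Lamp2, one form of which is the receptor for chaperone-mediated autophagy, had a log2 fold change of 0.30 ± 0.09 (edgeR adjusted p = 0.0336), and Cd63 one of 0.28 ± 0.10 (adjusted p = 0.0478). Scarb2, which carries a hydrolase to the lysosome, did not pass (0.16 ± 0.10, adjusted p = 0.288), and neither did the cation channel Mcoln1, with 25.4 and 32.7 CPM in PQ libraries, 29.2 and 34.3 in NAC libraries, and 27.5 and 24 in control libraries. PQ and control overlapped in Mcoln1 (0.18 ± 0.15, adjusted p = 0.456). Atp6ap1, the accessory subunit of the proton pump, had 221 and 219 CPM in PQ libraries, 168 and 178 in NAC libraries, and 171 and 174 in control libraries. Its PQ libraries were above the other 4 (0.35 ± 0.09, edgeR adjusted p = 0.0113), and Grn, which encodes progranulin, did not pass (0.11 ± 0.11, adjusted p = 0.534).

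The membrane calls were also sensitive to single libraries. Without PQ replicate 2 the edgeR adjusted p was 0.131 for Lamp1, 0.0750 for Laptm4a, 0.149 for Cln3, 0.0963 for Lamp2 and 0.0910 for Atp6ap1, and without PQ replicate 1 it was 0.0536 for Laptm4a, 0.229 for Lamp2 and 0.0790 for Atp6ap1. Without control replicate 1 it was 0.0891 for Lamp1, 0.0854 for Laptm4a and 0.208 for Lamp2, and without control replicate 2 it was 0.0794 for Cln3. The call of Cd63 ended in each fit without 1 library (adjusted p 0.0514 to 0.342) and in limma on FPKM (0.0639 to 0.0643). Lamp1 shares 9.31% of its exonic bases with Grtp1 and Cln3 7.65% with Apobr, both on the opposite strand, and these partners averaged 1.94 and 1.60 CPM over all libraries. Ppt1 shares 3.51% with Cap1, which did not pass with PQ (0.14 ± 0.09, adjusted p = 0.329).

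The enzymes of glycosaminoglycan and sulfate ester degradation had 0 of 6 genes called with PQ in either direction, with 0 at an unadjusted p under 0.05 and 0 in DESeq2. Of their estimates 1 was positive and 5 were negative, with a median log2 fold change of -0.11. Arsb, the sulfatase for dermatan and chondroitin sulfate, had 41.5 and 46.0 CPM in PQ libraries, 58.5 and 56.2 in NAC libraries, and 49.1 and 52.0 in control libraries. Its PQ libraries were the lowest, and the difference from control did not pass (-0.21 ± 0.11, edgeR adjusted p = 0.207). Ids, the iduronate sulfatase (-0.18 ± 0.10), Galns, the sulfatase for keratan sulfate (-0.11 ± 0.15), and Arsa, which desulfates sulfatide (-0.11 ± 0.12), gave negative estimates too. The heparan sulfate enzymes Naglu (-0.05 ± 0.17) and Sgsh (0.05 ± 0.21) were near 0 with wide errors. Arsa and Sgsh share 18.8% and 21.6% of their exonic bases with another gene on the opposite strand.

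Of the transcription factors, Tfeb had 12.0 and 10.9 CPM in PQ libraries, 11.0 and 13.2 in NAC libraries, and 11.8 and 10.4 in control libraries. The groups overlapped in each comparison, and the log2 fold change with PQ was 0.04 ± 0.17 (edgeR adjusted p = 0.906). Tfe3 had 80.1 and 87.4 CPM in PQ libraries, 75.5 and 69.1 in NAC libraries, and 68.9 and 67.3 in control libraries. Its PQ libraries lay above the other 4, and its log2 fold change was 0.30 ± 0.10 (edgeR adjusted p = 0.0463). That call ended in each fit without 1 library (adjusted p 0.0578 to 0.337), in DESeq2 (0.0905), in limma on FPKM (0.0511 to 0.0512) and with only the PQ and control libraries (0.0535). TFEB and TFE3 are regulated largely through phosphorylation and entry into the nucleus, which RNA levels do not measure.

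**Figure D2:**
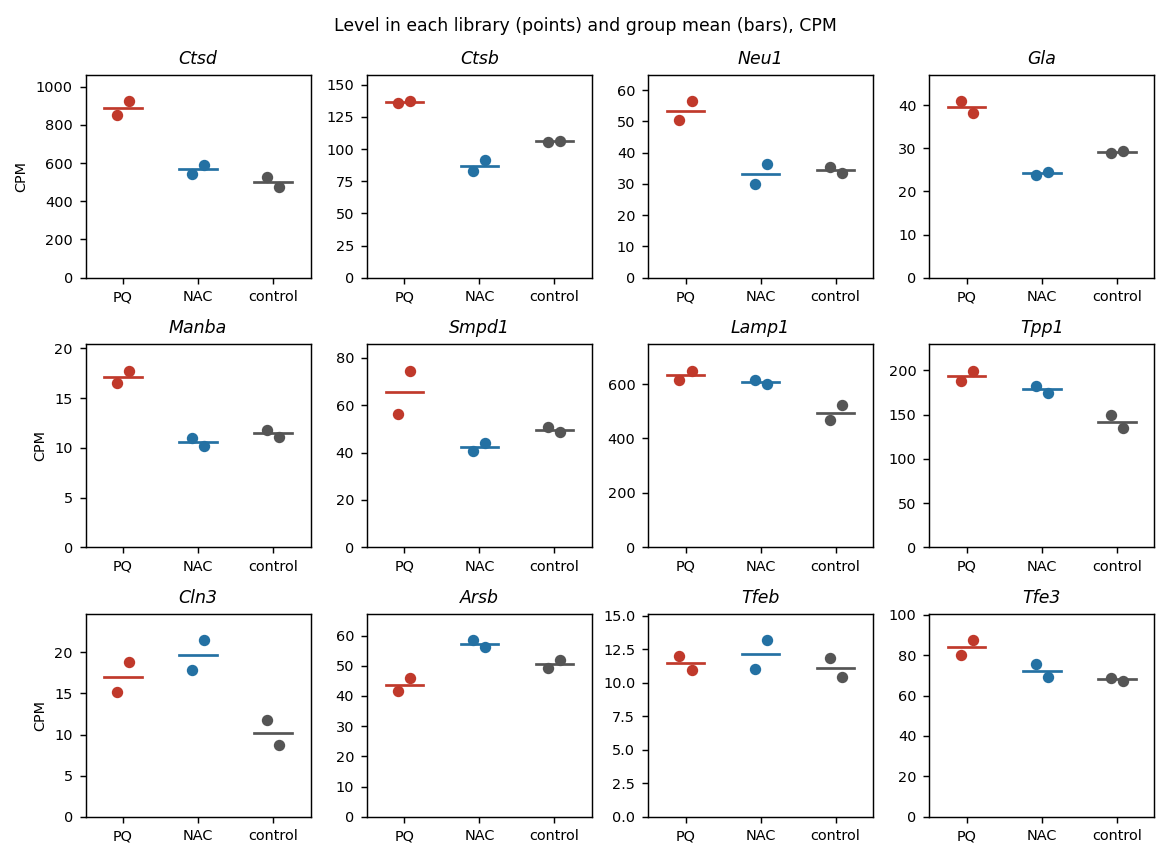
Level in CPM (y axis, from 0) of 12 lysosomal genes in each library, with PQ, NAC and control from left to right; points are libraries and bars are means of 2 libraries. Ctsd, Ctsb, Neu1, Gla, Manba and Smpd1 are highest with PQ, Lamp1, Tpp1 and Cln3 are higher in both treatments than in control, and Tfeb overlaps across groups.

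With NAC, 4 of the 37 genes were higher than in control cells (10.8%) and 0 were lower, against 8.65% higher and 9.26% lower among all genes. The share higher was close to the background. The share called in either direction was below the 17.9% of all genes. At an unadjusted p under 0.05, 9 were higher and 4 lower, and DESeq2 called 3 higher and 0 lower. The median log2 fold change was 0.09, with 25 of 37 estimates positive, and in 17 genes both NAC libraries lay above control and in 8 below (28.3% of all genes each way). The 4 genes were Cln3, Tpp1, Lamp1 and Ppt1, all of which were also higher with PQ; both comparisons use the same control libraries. Cln3 was 1.92-fold higher with NAC (log2 0.94 ± 0.18, edgeR adjusted p = 0.00109) and kept its call in each alternative. Tpp1 had a log2 fold change of 0.33 ± 0.09 (edgeR adjusted p = 0.021), Lamp1 one of 0.29 ± 0.09 (adjusted p = 0.0308) and Ppt1 one of 0.33 ± 0.10 (adjusted p = 0.0317). Without NAC replicate 1 only Cln3 passed, with adjusted p values of 0.142 for Tpp1, 0.154 for Lamp1 and 0.285 for Ppt1. The count was 2 without NAC replicate 2 and 2 without PQ replicate 2. In other fits that left out a library or used DESeq2, the edgeR or DESeq2 adjusted p of ended calls was 0.0588 to 0.124 for Tpp1 (without NAC replicate 2 and control replicate 2), 0.0509 to 0.196 for Lamp1 (leaving out NAC replicate 2, PQ replicate 2 or control replicate 1) and 0.0504 to 0.153 for Ppt1 (DESeq2, or leaving out a PQ library or control replicate 1). Ctsb stood lower with NAC in both libraries without passing (-0.28 ± 0.10, edgeR adjusted p = 0.052). Higher in both NAC libraries without passing were Ctsa (0.29 ± 0.10, adjusted p = 0.0503), Man2b1 (0.36 ± 0.12, adjusted p = 0.0547) and Hexa (0.31 ± 0.11, adjusted p = 0.07). Ctsd did not pass (0.17 ± 0.09, adjusted p = 0.214), and neither did Tfeb (0.12 ± 0.17, adjusted p = 0.685), Tfe3 (0.09 ± 0.10, adjusted p = 0.611) or Mcoln1 (0.30 ± 0.15, adjusted p = 0.171).

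PQ and NAC cells differed directly in 12 of the 37 genes (32.4%), close to the 30.6% of all genes. Of these, 11 were higher with PQ (15.5% of all genes were) and 1 was lower (15.1% of all genes), the median log2 fold change was 0.14, and 26 estimates were positive. In 22 genes both PQ libraries lay above both NAC libraries (33.1% of all genes), and in 3 they lay below (32.9%). The largest estimates were those of Gla (0.71 ± 0.12, edgeR adjusted p = 0.000209), Manba (0.70 ± 0.16, adjusted p = 0.0022), Neu1 (0.69 ± 0.12, adjusted p = 0.000269), Ctsb (0.65 ± 0.10, adjusted p = 5.09e-05) and Ctsd (0.65 ± 0.09, adjusted p = 3.84e-05). These 5 passed in each fit without 1 library and in each other alternative. Smpd1 (0.63 ± 0.13, edgeR adjusted p = 0.000918), Gaa (0.44 ± 0.10, adjusted p = 0.00284), Ctsl (0.35 ± 0.09, adjusted p = 0.00943), Atp6ap1 (0.34 ± 0.09, adjusted p = 0.007), Npc2 (0.31 ± 0.10, adjusted p = 0.0245) and Laptm4a (0.27 ± 0.09, adjusted p = 0.0368) were also higher with PQ. Arsb was the gene lower with PQ than with NAC (-0.39 ± 0.11, edgeR adjusted p = 0.00959). Leaving out PQ replicate 2, NAC replicate 1 or PQ replicate 1 ended calls, and the share called was then below that of all genes in the same fit. The median log2 fold change of the lysosomal genes in these fits was 0.115, 0.15 and 0.14. The calls that ended were those of Ctsl (adjusted p up to 0.0837), Atp6ap1 (up to 0.0792), Npc2 (up to 0.199) and Laptm4a (up to 0.149) in all 3 of these fits, of Gaa (0.0527 and 0.0543) without PQ replicate 2 and NAC replicate 1, of Smpd1 (0.0502) without PQ replicate 2, and of Arsb (0.114 and 0.0750) without PQ replicate 1 and NAC replicate 1. The call of Laptm4a also ended without NAC replicate 2 (0.145), and limma on FPKM gave 0.0602 to 0.0604 for Npc2 and 0.0653 to 0.0658 for Laptm4a. Fdft1, the opposite-strand neighbour of Ctsb, was also higher with PQ than with NAC (0.54 ± 0.09, adjusted p = 0.000239).

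The 3 tests sorted the genes into a few patterns. Ctsb, Ctsd, Ctsl, Gla, Gaa, Manba, Neu1, Npc2, Smpd1, Laptm4a and Atp6ap1 were higher with PQ than in both other groups, and these 11 include soluble enzymes of protein, glycan and lipid breakdown. Both comparisons use the same PQ libraries, and of the 11 only Ctsd and Neu1 kept both calls under each alternative. The share called in PQ against NAC, 32.4%, was close to the 30.6% of all genes. How many of all genes follow each pattern was not counted. Lamp1, Tpp1, Ppt1 and Cln3 were higher in both treatments than in control, and PQ and NAC were not called different in them, with log2 differences of 0.06 ± 0.09, 0.12 ± 0.09, 0.02 ± 0.10 and -0.21 ± 0.17. Lamp2, Cd63, Lipa and Tfe3 were called with PQ against control only, and their differences between PQ and NAC were not called. Of the 38 genes, 18 were called in no comparison, Ctsz among them.

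**Figure D3:**
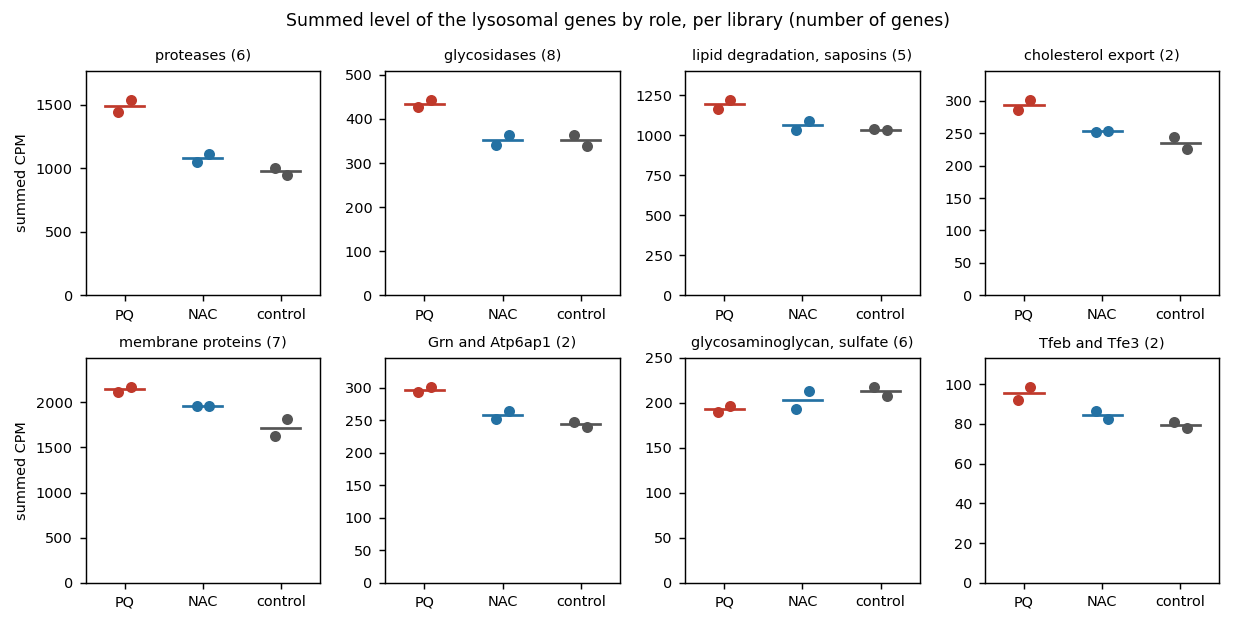
Summed CPM (y axis, from 0) of the lysosomal genes of each role in each library, with PQ, NAC and control from left to right; points are libraries, bars are means of 2 libraries, and the number of genes is in brackets. Protease sums are 1442 and 1538 in PQ, 1048 and 1115 in NAC and 1001 and 951 in control libraries, and the glycosaminoglycan and sulfate ester group is the one in which both PQ sums lie below both control sums.

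Summed over all 38 genes, the lysosomal genes took 6012 and 6266 CPM in PQ libraries, 5169 and 5343 in NAC libraries, and 4815 and 4891 in control libraries. Ctsd, Lamp1 and Psap make up a large part of this sum, so it follows the most abundant genes. By role, glycosidases summed to 427 and 443 CPM in PQ libraries, 339.9 and 364 in NAC libraries, and 364 and 339 in control libraries, with the PQ libraries above the rest. Membrane proteins summed to 2118 and 2167 CPM in PQ, 1961 and 1959 in NAC, and 1622 and 1816 in control libraries, where all treated libraries lay above control. Glycosaminoglycan and sulfate ester enzymes summed to 189.5 and 197 CPM in PQ, 193 and 214 in NAC, and 217 and 208 in control libraries, and here the PQ libraries were below control.

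Other genes of the pathway were counted in lists from general knowledge. Among all genes tested, 9.07% were higher and 8.8% lower with PQ than in control, and 8.65% and 9.26% with NAC. With PQ against NAC the shares were 15.5% higher and 15.1% lower. Of the 17 V-ATPase subunits, which acidify the lysosome, 8 were higher with PQ than in control (47.1%) and 0 were lower (12 and 0 at an unadjusted p under 0.05, 7 and 0 in DESeq2), with a median log2 fold change of 0.32. They included Atp6v0b (0.51 ± 0.12, edgeR adjusted p = 0.00503), Atp6v1e1 (0.45 ± 0.11, adjusted p = 0.00629), Atp6v1d (0.54 ± 0.13, adjusted p = 0.00659) and Atp6v1h (0.42 ± 0.11, adjusted p = 0.0103). Atp6v1e1 had 103 and 111 CPM in PQ libraries, 91.9 and 86.3 in NAC libraries, and 71.6 and 85.2 in control libraries, with the PQ libraries on top. With NAC 0 of 17 subunits were called in either direction (1 higher and 0 lower at an unadjusted p under 0.05, and 0 in DESeq2), with a median of 0.05. Against NAC, PQ was higher in 7 subunits and lower in 0 (10 and 0 unadjusted, 6 and 0 in DESeq2), led by Atp6v1f (0.52 ± 0.11, edgeR adjusted p = 0.00168). With PQ against control the count was 2 without PQ replicate 2, and 5 without PQ replicate 1 and without each control library. With PQ against NAC it was 2 without PQ replicate 2 or NAC replicate 1, and 4 without PQ replicate 1 or NAC replicate 2. Without PQ replicate 2 the adjusted p was 0.0587 for Atp6v0b and 0.102 for Atp6v1e1, without control replicate 1 it was 0.0588 for Atp6v1e1, 0.0501 for Atp6v1d and 0.0598 for Atp6v1h, and without PQ replicate 1 it was 0.110 for Atp6v1h.

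Among 26 other tested hydrolases and activators, 8 were higher with PQ than in control and 1 was lower. The share called was 34.6% with PQ and 23.1% with NAC, against 17.9% of all genes in each comparison. Ctsh, a cathepsin with aminopeptidase activity, was higher (0.80 ± 0.17, edgeR adjusted p = 0.00319), as was Aga, which cleaves asparagine-linked sugars (0.65 ± 0.18, adjusted p = 0.015). Ctsc, a dipeptidyl peptidase, went the other way, with 38.8 and 39.6 CPM in PQ libraries, 82.4 and 86.1 in NAC libraries, and 52.0 and 62.2 in control libraries. It was lower with PQ (-0.54 ± 0.11, edgeR adjusted p = 0.00264), higher with NAC (0.56 ± 0.11, adjusted p = 0.00107), and its groups did not overlap. Without PQ replicate 2 the count higher was 3, and it was 4 without PQ replicate 1 or control replicate 2. For Aga the call ended with either control replicate 2 (adjusted p = 0.0698) or PQ replicate 1 (0.196) left out. With NAC 4 were higher and 2 were lower, including Naaa, an acid amidase (-1.25 ± 0.29, edgeR adjusted p = 0.00459; -0.82 and 0.104 without control replicate 2). The count higher with NAC was 2 without NAC replicate 1 and 1 without NAC replicate 2. PQ was above NAC in 6 of these genes and below it in 2, a share called of 30.8%, close to the 30.6% of all genes. Fewer were above when a PQ or NAC library was left out. Ctsc was the most changed of those below (-1.10 ± 0.11, edgeR adjusted p = 7.29e-07).

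In the list of 20 other membrane proteins 5 were higher with PQ and 0 were lower (10 and 0 at an unadjusted p under 0.05, 2 and 0 in DESeq2), and with NAC 3 were higher and 0 lower (6 and 2 unadjusted, 3 and 0 in DESeq2). The share called was 25% with PQ and 15% with NAC, against 17.9% of all genes in each comparison. Ctns, the cystine exporter, was higher with PQ (0.65 ± 0.17, edgeR adjusted p = 0.014) and with NAC (0.80 ± 0.17, adjusted p = 0.00268), and the sialic acid exporter Slc17a5 was higher with NAC (0.70 ± 0.13, adjusted p = 0.000802). Without PQ replicate 2 the count of these higher with PQ was 0, without control replicate 2 it was 2, and without PQ replicate 1 it was 3; the call of Ctns with PQ ended in DESeq2 (adjusted p = 0.0582) and with PQ replicate 2 (0.163) or control replicate 2 (0.0825) left out. Of 21 genes of enzyme sorting and maturation, 4 were higher and 1 lower with PQ, with Igf2r, the mannose 6-phosphate receptor, at 0.48 ± 0.09 (edgeR adjusted p = 0.00162), and 5 were higher and 0 lower with NAC (7 and 2 unadjusted, 2 and 0 in DESeq2), with Nagpa at 1.09 ± 0.22 (adjusted p = 0.00169) and Gnptg at 0.74 ± 0.16 (adjusted p = 0.0033). Without 1 library the counts higher were 1 to 4 with PQ (1 without PQ replicate 2) and 2 to 3 with NAC. The share of the sorting list called was 23.8% with PQ and 23.8% with NAC, against 17.9% of all genes. Nagpa and Gnptg act in making the mannose 6-phosphate tag of lysosomal enzymes. Of 20 TFE regulators and nutrient sensors, Rragc alone was called higher with PQ (0.34 ± 0.10, edgeR adjusted p = 0.0296, not called in DESeq2 or without control replicate 1, PQ replicate 1 or PQ replicate 2), and 0 were lower (3 higher and 1 lower at an unadjusted p under 0.05, 0 in DESeq2). With NAC against control 2 were higher and 0 lower (4 and 3 unadjusted, 2 and 0 in DESeq2), namely Rragb (0.63 ± 0.15, edgeR adjusted p = 0.00681) and Fnip2 (0.46 ± 0.12, adjusted p = 0.0119). The count higher was 4 without control replicate 1 and 1 without either NAC library, where the call of Fnip2 ended (adjusted p 0.0551 to 0.0746). With PQ against NAC 3 were higher, namely Rraga (0.50 ± 0.09, edgeR adjusted p = 0.000515), Rragd (0.40 ± 0.10, adjusted p = 0.00607) and Mitf (0.77 ± 0.20, adjusted p = 0.00716), and Rragb was lower (-0.61 ± 0.15, adjusted p = 0.00537). Against control 5% of this list was called with PQ and 10% with NAC, both below the 17.9% of all genes. With PQ against NAC the share called, 20%, was below the 30.6% of all genes. The call of Rragb ended without PQ replicate 2 (adjusted p = 0.0515), that of Mitf without NAC replicate 2 (0.0670), and that of Rragd without PQ replicate 1 (0.0652) or NAC replicate 1 (0.0841). Among 15 genes of the HOPS tethering complex and lysosome positioning, Vps18 was called with PQ (0.71 ± 0.16, edgeR adjusted p = 0.00594) and Vps33a with NAC (0.40 ± 0.12, adjusted p = 0.0243). That is 6.67% of the list in each comparison, below the 17.9% of all genes called. The first call ended without PQ replicate 2 (adjusted p = 0.175), and the second ended in DESeq2 and without NAC replicate 1, NAC replicate 2 or control replicate 2. Of 12 sphingolipid enzymes outside the lysosome, 0 were called with PQ (0 at an unadjusted p under 0.05 and 0 in DESeq2), and with NAC 2 were higher and 1 lower, led by the neutral sphingomyelinase Smpd3 (1.07 ± 0.25, edgeR adjusted p = 0.0057). The share called with NAC was 25%, against 17.9% of all genes.

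**Figure D4:**
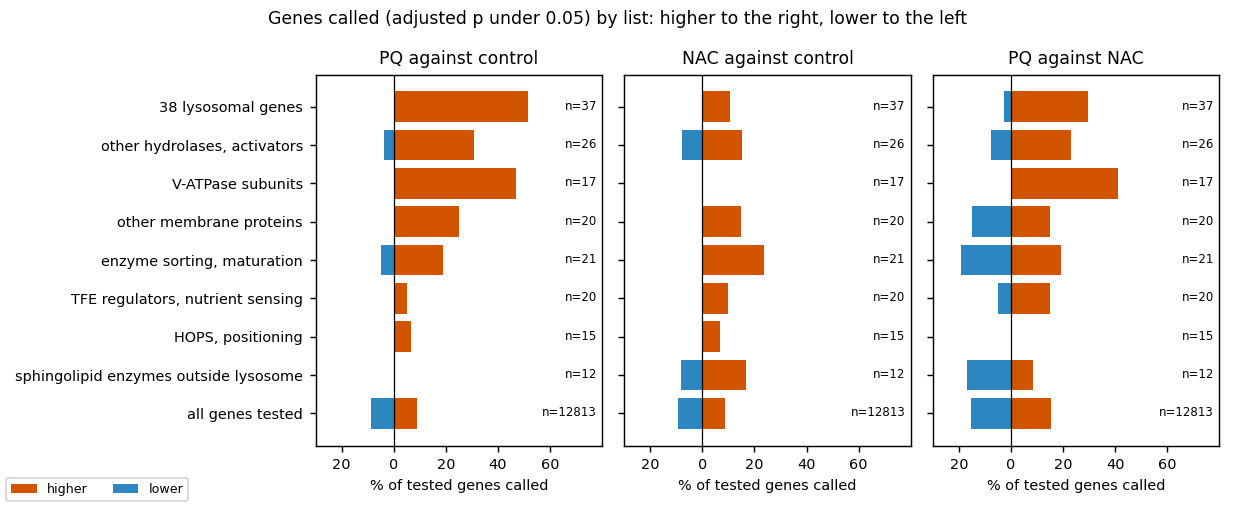
Percent of tested genes called in each list (x axis, higher to the right of 0 and lower to the left) in the 3 comparisons, with the number tested at the right. With PQ against control the 38 lysosomal genes and the V-ATPase subunits have the longest bars on the higher side, and with NAC the V-ATPase subunits have none.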

How the data were processed

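RNA of 6 libraries (control, PQ and NAC, 2 each) was analysed from gene tables that list an expected count, an FPKM value and a length per gene. The deposited expected counts are estimates, and the FPKM values and lengths were also made by the authors, per the file headers. RSEM, HISAT2 2.0.4, Bowtie2 2.2.5 and the mm10 build are listed in the submitters' processing notes, with no role for each. Whether counting used the strand is not given in the sources used here, so reads of opposite-strand genes that share exons cannot be told apart. Tables list only genes above 0, and an absent gene was set to 0. Of 17254 identifiers, 17199 were named from a RefSeq table, and coordinates are GRCm38.p6.

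Expected counts were rounded to whole numbers. The filterByExpr function (minimum count 10, minimum total 15) left 12813 genes, which were scaled by TMM. One mean per group was fitted over all 6 libraries with edgeR 4.0.16 (limma 3.58.1, R 4.3.3; 3 residual degrees of freedom) and tested by quasi-likelihood with Benjamini-Hochberg adjustment (threshold 0.05). SE is the absolute log2 fold change over the square root of F. CPM uses TMM factors. Sums over a list are of CPM. On simulated libraries with 200 changed genes the test found 58.21% of 1.5-fold and 91.04% of 2-fold changes for PQ against control (12730 genes), 47.76% and 80.6% for NAC against control (12732 genes), and 67.16% and 86.57% for PQ against NAC (12740 genes). The changed genes were drawn from all tested genes. They were fewer than those called in these data, and the Benjamini-Hochberg adjustment depends on that number. Alternatives were library-size scaling, DESeq2 1.42.0 and its size factors, no filter, a mean of at least 5 CPM, fits of 2 groups, a robust fit, limma on log2(FPKM + 1) and log2(FPKM + 0.1), and leaving out each library. Promoter windows are RefSeq's. Figures used Python 3.11.15, pandas 2.3.3 and matplotlib 3.10.9.

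The genes and lists were chosen with earlier results of these data known. All 38 genes are named; called genes (at most the 14 with the smallest p in a comparison), Tfeb, Tfe3, Lamp1 and Mcoln1 have values in every library, and other lists have counts and up to 4 called genes with the smallest p; 1 gene picked by this rule is not reported here. Cell type lists cover neural stem cells, microglia, neurons, oligodendrocytes, astrocytes, endothelium and fibroblasts. Replicate numbers here follow sample order. The titles number the libraries 8 to 10 and 11 to 13, with 1 library of each group in each run, and the labels do not say whether these runs are batches. A fit with the run as a block was added after the data were seen.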

Additional observations from a re-analysis of the deposited data

How the results depend on the processing

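Leaving out 1 library moved the counts of called lysosomal genes most: they ranged from 2 to 17 for PQ against control (19 with all libraries), from 1 to 4 for NAC against control (4 with all), and from 6 to 12 for PQ against NAC (12 with all). Where 1 library of a group was left, that library was assumed to vary like the others. Other scalings, filters, tests and fits without a block gave 16 to 20 calls for PQ against control (43.2% to 54.1%, against 13% to 20.6% of all genes). They gave 10 to 12 for PQ against NAC (27% to 32.4%, against 23.3% to 35% of all genes). For NAC against control they gave 3 to 7, with 7 under library-size scaling and 7 with a mean of at least 5 CPM; the cause was not tested. No gene with a call changed sign. Among single genes that did not pass, Ctsa, Hexa, Man2b1, Ctsb and Grn passed in NAC against control, and Npc1 in PQ against control, under at least 1 alternative. Without the filter Ctsz was not called (PQ against control 0.88 ± 0.67, adjusted p = 0.481). Scaling by library size moved the median of all genes by 0.03 for PQ against control, 0.05 for NAC against control and -0.02 for PQ against NAC (log2). Ctsd and Neu1 with PQ, Cln3 with NAC, and Ctsb, Ctsd, Gla, Manba and Neu1 in PQ against NAC were called under each alternative. The titles number 1 library of each group 8 to 10 and 1 of each 11 to 13, and the differences between these runs correlated across 12813 genes at -0.0679 between PQ and control, -0.112 between NAC and control, and 0.112 between PQ and NAC. The main fit does not pair the libraries by these numbers. Correlations over all genes do not test an effect of the run on single genes. With the run as a replicate block (chosen after seeing the data, 2 residual degrees of freedom), 14 genes were called for PQ against control, 2 for NAC against control and 11 for PQ against NAC. The shares were 37.8%, 5.41% and 29.7%, against 14.4%, 14.8% and 27.2% of all genes in that fit. The calls that ended were those of Lamp2, Cd63, Ppt1, Smpd1 and Tfe3 with PQ (adjusted p 0.05 to 0.0814), of Lamp1 (0.0597) and Ppt1 (0.0617) with NAC, and of Laptm4a (0.0646) in PQ against NAC. With 2 libraries a group, changes of 1.5-fold or less, and some of 2-fold, can be missed at this depth. On the simulated libraries the test found 47.76% to 67.16% of 1.5-fold changes and 80.6% to 91.04% of 2-fold changes.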
